A study of Mus musculus with 6 samples.

Results

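Aminoacyl-tRNA synthetases attach each amino acid to its transfer RNA, and their transcripts were read in RNA sequencing libraries of haematopoietic stem cells sorted from mouse bone marrow. The rule for members matches gene symbols and uses no measured value, and takes the cytosolic and mitochondrial synthetases together with the scaffold proteins that hold several cytosolic enzymes in one complex. The choice of this group of genes was made with earlier results of these data known. Of the 52183 genes in the deposited table, 40 were members, namely 21 cytosolic enzymes, 16 mitochondrial enzymes and 3 scaffold proteins. All 40 reached 1 FPKM (fragments scaled by exon length and sequencing depth) in at least 3 of the 6 libraries and could be tested. Lars2, the mitochondrial leucine enzyme, was left out by the rule because its reads may be ribosomal. The libraries came from 4-month-old female mice, 3 labelled Thbs1 knockout and 3 labelled control, and the question was what loss of Thbs1, the gene of the secreted matrix protein thrombospondin-1, changes in these cells. The labels do not give the kind of Thbs1 allele, the strain, or whether each library is 1 animal. What a p-value measures here is thus the spread among these samples, part or all of which may be technical.

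Cytosolic synthetases supply charged transfer RNA to the ribosomes that translate nuclear messages, and a separate set, also encoded in the nucleus, is imported to serve the ribosomes inside mitochondria. Several cytosolic enzymes join the scaffold proteins Aimp1, Aimp2 and Eef1e1 in the multi-synthetase complex, while the others work outside it. Uncharged transfer RNA activates the kinase Gcn2, whose downstream factor Atf4 binds C/EBP-ATF elements in genes of amino acid supply, many cytosolic synthetase genes among them. Haematopoietic stem cells are known for a low rate of protein synthesis that their maintenance depends on.

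The targeted gene went against its label. Thbs1 had 10.8, 8.5 and 7.68 FPKM in libraries labelled knockout, against 4.12, 13.8 and 2.33 FPKM in the control libraries. The groups overlapped, and an exact two-sided permutation test gave p = 0.5, where 3 libraries against 3 cannot go below 0.1. The change on the log2(FPKM + 1) scale was 0.65 ± 0.43 (SE; limma adjusted p = 0.503), and with single libraries left out it lay between 0.19 without control replicate 3 (limma adjusted p = 0.851) and 1.26 without control replicate 2 (limma adjusted p = 0.0343). A gene-level FPKM does not show which exons the reads cover, and the first group is called by its label throughout. The depth read from the FPKM steps was 25740000 to 30890000 reads in libraries labelled knockout and 22730000 to 25880000 in control libraries, which put 331 to 16173 reads behind each member's value. Summed over all genes, FPKM came to between 329434 and 339652 in libraries labelled knockout and between 373903 and 408725 in control libraries. Of the whole table, limma called 71 genes higher and 125 lower among 12555 tested.

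The stem cell label was read against marker lists. All 7 listed stem cell markers were measured, and they summed to between 650.7 and 738.9 FPKM in libraries labelled knockout and between 673.3 and 753.1 FPKM in control libraries. Among them Ly6a, which encodes the Sca-1 antigen of the usual sort, fell to 76.9 ± 11.1 FPKM in libraries labelled knockout, against 114.8 ± 6.78 FPKM in control libraries (SD, n = 3 each; limma adjusted p = 0.0286). Procr, which encodes the stem cell antigen EPCR, had 59.3 ± 7.04 FPKM in libraries labelled knockout and 45.4 ± 1.93 FPKM in control libraries, with the groups apart and limma's adjusted p at 0.0857. None of the 5 B cell markers reached the filter, and of the 6 T cell markers only Lck did. Granulocyte and monocyte markers summed to between 385.7 and 431.3 FPKM in libraries labelled knockout and between 413.9 and 480.6 FPKM in control libraries. Of these 7 genes, 4 reached the filter. Lyz2 made up most of the sum, with means of 345.2 FPKM in libraries labelled knockout and 366.6 FPKM in control libraries. Prtn3 followed with 63.6 FPKM in libraries labelled knockout and 83.0 FPKM in control libraries, and the other listed genes had means over all libraries of at most 1.05 FPKM. Endothelial and stromal markers summed to between 9.26 and 11.3 FPKM in libraries labelled knockout and between 10.5 and 12.2 FPKM in control libraries. Other sums moved with the group. The 5 megakaryocyte markers came to between 254.6 and 360.2 FPKM in libraries labelled knockout, against 374.5 to 474.3 FPKM in control libraries. Pf4, a platelet chemokine gene, was the one of these whose groups lay apart, with 189.3 ± 48.4 FPKM in libraries labelled knockout and 314.9 ± 42.3 FPKM in control libraries (SD, n = 3 each; limma adjusted p = 0.0594). The 7 erythroid markers came to between 22.5 and 26.9 FPKM in libraries labelled knockout, against 32.4 to 38.9 FPKM in control libraries, and Hbb-bt, a beta-globin gene, was called lower, with 4.06 ± 0.462 FPKM in libraries labelled knockout and 14.8 ± 4.5 FPKM in control libraries (limma adjusted p = 0.00247). Klf1, an erythroid transcription factor gene of the same list, had 12.9 ± 0.653 FPKM in libraries labelled knockout and 10.3 ± 2.94 FPKM in control libraries, which overlap. The 3 markers that are low in stem cells, Cd34, Flt3 and Cd48, summed to between 59.4 and 69.4 FPKM in libraries labelled knockout and between 69.8 and 76.8 FPKM in control libraries, also apart, and limma called none of them. The part of these cells in the synthetase values was not tested, and in bulk samples fewer cells of a type and less RNA per cell cannot be told apart.

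**Figure D1:**
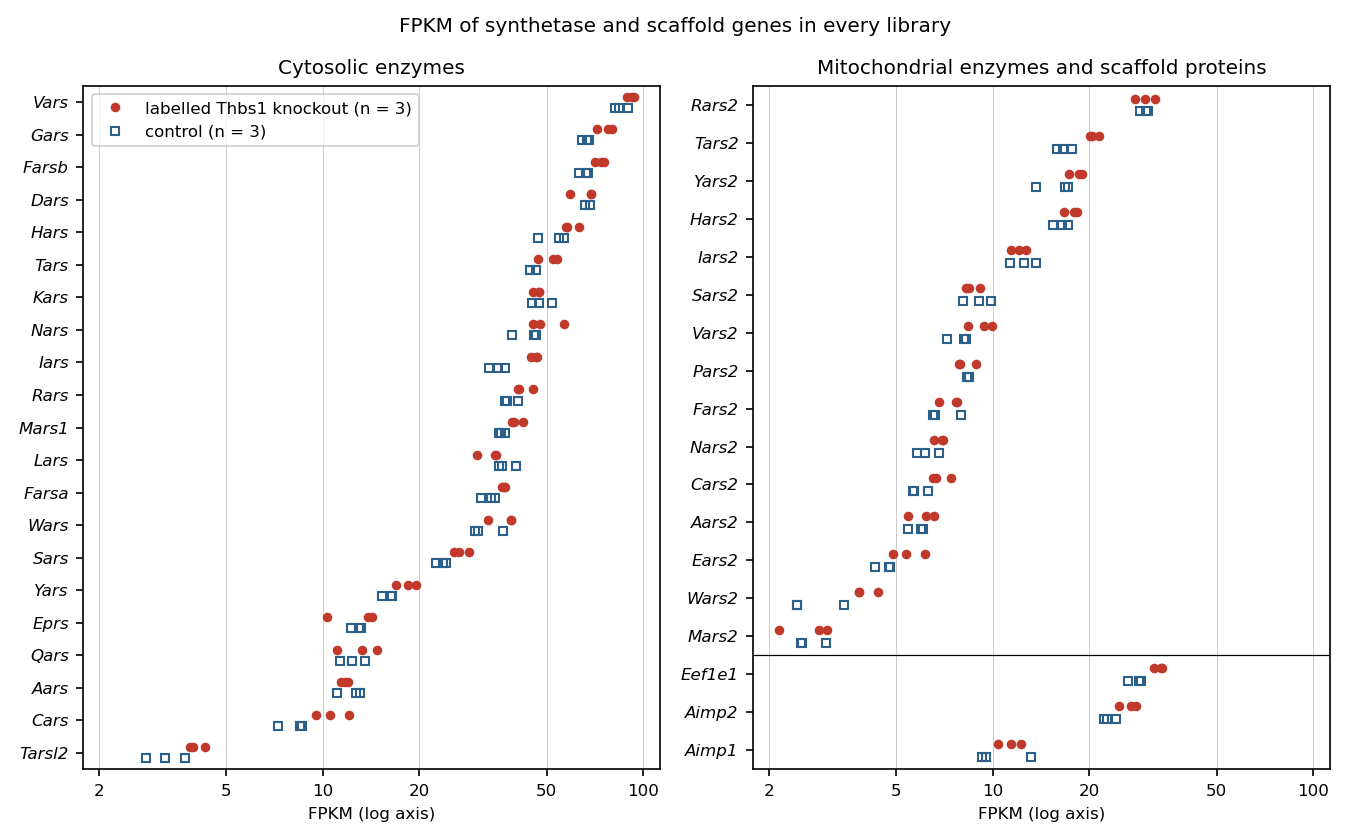
FPKM of the synthetase and scaffold genes reported here in every library on a log axis, with cytosolic enzymes on the left, and mitochondrial enzymes and scaffold proteins on the right. Filled circles are the 3 libraries labelled Thbs1 knockout and open squares the 3 control libraries. Most cytosolic enzymes lie to the right of most mitochondrial ones. The circles lie apart from the squares for Iars and for other genes shown, Gars, Cars and Tars2 among them.

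Cytosolic enzymes were the more abundant transcripts. Their mean levels over the 6 libraries ran from 3.63 to 88.3 FPKM with a median of 38.2, whereas mitochondrial enzymes ran from 2.69 to 29.9 FPKM with a median of 8.44. Of the 21 cytosolic enzymes, 14 stood above the highest mitochondrial one. Vars, the valine enzyme, was the highest, with 93.4, 88.9 and 92.2 FPKM in libraries labelled knockout and 89.4, 81.7 and 84.1 FPKM in control libraries. It stood above every other synthetase in every library on this scale. Gars, the glycine enzyme, Farsb, the beta subunit of the phenylalanine enzyme, and Dars, the aspartate enzyme, came next, and their ranges over the libraries overlapped one another. The lowest cytosolic gene was Tarsl2, a second cytosolic threonine enzyme, with 4.29, 3.86 and 3.92 FPKM in libraries labelled knockout and 3.72, 3.21 and 2.81 FPKM in control libraries. Rars2, the mitochondrial arginine enzyme, led its compartment with 29.9, 27.8 and 32.1 FPKM in libraries labelled knockout and 28.9, 30.5 and 30.0 FPKM in control libraries. Mars2, the mitochondrial methionine enzyme, closed it with 2.16, 3.04 and 2.87 FPKM in libraries labelled knockout and 3.01, 2.55 and 2.52 FPKM in control libraries. The groups overlapped for Vars, Rars2 and Mars2, but not for Tarsl2. The top ranks depend on the length used. Per kilobase of the longest coding transcript, Dars led the cytosolic enzymes at 132.2 and Vars followed at 122.3, while Tars2 led the mitochondrial enzymes at 54.0 and Rars2 followed at 44.3.

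Iars was the single synthetase gene that passed the test. Iars, the cytosolic isoleucine enzyme of the multi-synthetase complex (ENSMUSG00000037851, GRCm38 chromosome 13, 49682100 to 49734267, plus strand), had 44.6, 46.1 and 46.7 FPKM in libraries labelled knockout, against 37.0, 35.3 and 32.9 FPKM in control libraries. The groups lay apart, and the lowest library labelled knockout stood above the highest control library. Means were 45.8 ± 1.06 FPKM in libraries labelled knockout and 35.1 ± 2.05 FPKM in control libraries (SD, n = 3 each), so Iars rose 1.31-fold, by 0.38 ± 0.07 on the log2(FPKM + 1) scale (SE; limma adjusted p = 0.0365). The size held between 0.33 and 0.42 when any 1 library was left out, but the call did not, since limma's adjusted p was then 0.0607 to 0.125. With all libraries kept, it was also lost without the intensity trend, with no filter on low values, after quantile normalization and with the replicate number as a block, where limma's adjusted p lay between 0.0634 and 0.148. Iars has a near copy, the pseudogene Gm4849 on chromosome 1, which matched 1656 bases of it at 96.0% identity and stood at 0.03 to 0.14 FPKM.

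Over the 21 cytosolic enzymes, limma called 1 higher and 0 lower, where 0.566% of all genes tested were called higher and 0.996% lower. At an unadjusted p below 0.05, 6 were higher and 0 lower, which is 28.6% of them higher, where the shares over all genes tested were 8.92% higher and 7.46% lower. In 11 of the 21, or 52.4%, every library labelled knockout stood above every control library, and in 1 every such library stood below. Over all genes those shares were 12.6% above and 10.1% below. The median log2 change was 0.16 with 16 above 0, beside a median of 0.01 with 53.4% above 0 over all genes tested. Among the 8175 tested genes with a mean of at least 5 FPKM the median was 0.04, 59.7% were above 0, and 15.8% had every library labelled knockout above every control library. Summed, the cytosolic enzymes came to 839.4, 842.7 and 855.1 FPKM in libraries labelled knockout and to 780.6, 755.1 and 782.8 FPKM in control libraries.

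**Figure D2:**
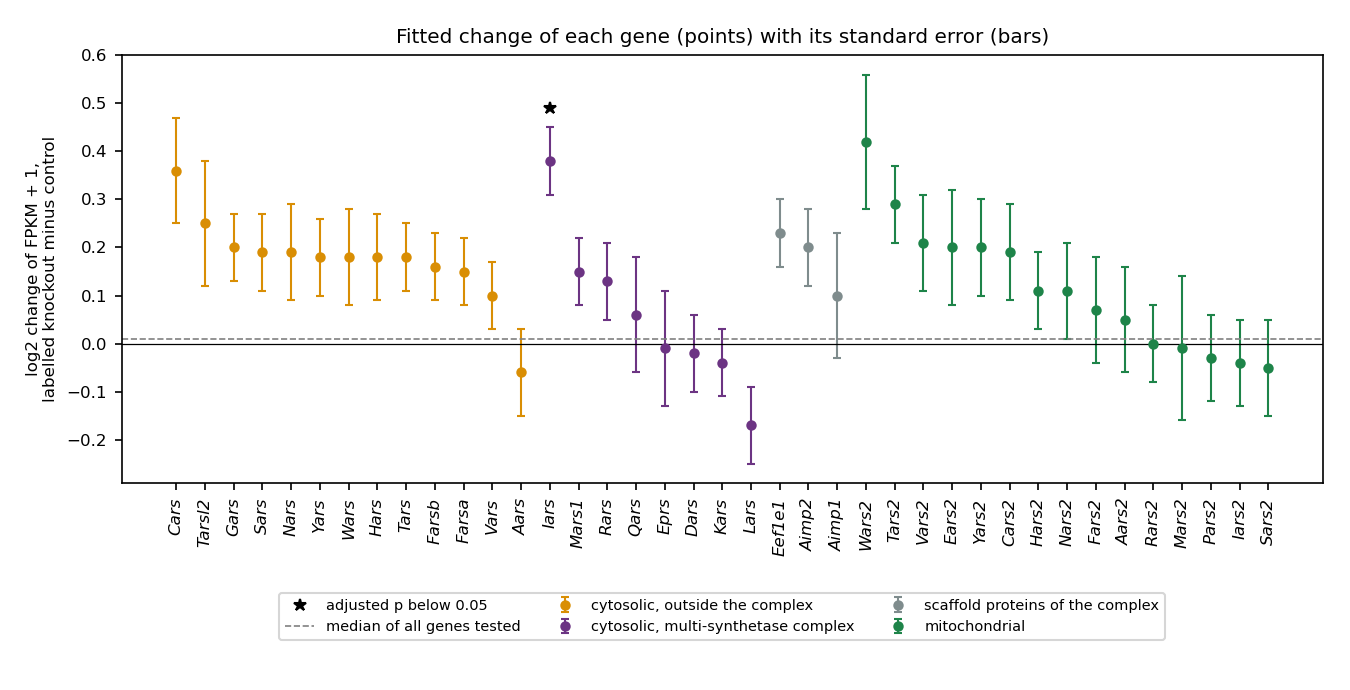
Log2 change of each synthetase and scaffold gene reported here (libraries labelled Thbs1 knockout minus control, on the log2(FPKM + 1) scale) with limma's standard error as bars, grouped by place in the cell. The star marks Iars, the gene with an adjusted p below 0.05, and the dashed line is the median of all genes tested, 0.01.

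The cytosolic enzymes that work outside the complex leaned higher as a group. Of these 13, 12 lay above 0 with a median log2 change of 0.18, and in 9 the libraries labelled knockout all stood above the control libraries, which is 69.2% of them against 12.6% of all genes tested. None was called by limma, and 5 were higher at an unadjusted p below 0.05, with 0 lower. That is 38.5% higher, where the shares over all genes tested were 8.92% higher and 7.46% lower. Their FPKM summed to 552.5, 538.2 and 548.3 in libraries labelled knockout and to 494.6, 470.0 and 494.1 in control libraries, and the groups did not overlap. The 8 enzymes of the complex divided evenly, 4 above 0 and 4 below, with a median of 0.02. Array weights put 6 of these 8 above 0. With single libraries left out, the median lay between 0.00 and 0.09 in the complex and between 0.15 and 0.20 outside it. The enzymes of the complex summed to 286.9, 304.6 and 306.8 FPKM in libraries labelled knockout and to 286.0, 285.2 and 288.6 FPKM in control libraries, which overlap. The difference between these subgroups was not tested.

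Cars, the cysteine enzyme, had the largest change outside the complex, with 12.1, 10.6 and 9.5 FPKM in libraries labelled knockout and 8.49, 7.27 and 8.6 FPKM in control libraries. All 3 libraries labelled knockout exceeded the control libraries, and the change of 0.36 ± 0.11 did not pass (limma adjusted p = 0.157). Gars, which charges glycine in cytosol and mitochondria from a single gene, had 77.7, 79.6 and 71.7 FPKM in libraries labelled knockout and 67.6, 64.2 and 66.9 FPKM in control libraries (log2 change 0.20 ± 0.07; limma adjusted p = 0.185). Sars, the serine enzyme, had 25.6, 26.6 and 28.6 FPKM in libraries labelled knockout and 22.5, 23.7 and 24.2 FPKM in control libraries (0.19 ± 0.08; limma adjusted p = 0.247). For both enzymes the groups lay apart, though by a smaller step than for Iars. Farsb had 73.7, 75.4 and 70.7 FPKM in libraries labelled knockout and 67.3, 62.8 and 66.3 FPKM in control libraries (0.16 ± 0.07; limma adjusted p = 0.261), and its partner subunit Farsa a log2 change of 0.15 ± 0.07. Tars, the threonine enzyme, had 53.8, 47.1 and 52.2 FPKM in libraries labelled knockout and 44.3, 46.3 and 44.2 FPKM in control libraries (0.18 ± 0.07; limma adjusted p = 0.271). Its groups nearly met, at 47.1 in the lowest library labelled knockout and 46.3 in the highest control library. The exception outside the complex was Aars, the alanine enzyme, at -0.06 ± 0.09. Of the exon bases of Aars, 15.1% overlap other genes, among them Exosc6 on the same strand, which stood at 0.0 FPKM in every library.

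Within the complex the isoleucine and leucine enzymes, which charge closely related amino acids, pointed opposite ways. Lars, the cytosolic leucine enzyme, which in human cells also acts as a leucine sensor for mTORC1, had 30.4, 34.5 and 34.6 FPKM in libraries labelled knockout and 35.5, 40.2 and 36.2 FPKM in control libraries. It was the single member with every library labelled knockout below every control library, and was picked out after its values were seen. Its log2 change was -0.17 ± 0.08 (limma adjusted p = 0.358). Mars1, the methionine enzyme, was at 0.15 ± 0.07 and Rars, the arginine enzyme, at 0.13 ± 0.08. Qars, Eprs, Dars and Kars, which charge glutamine, glutamate and proline, aspartate, and lysine, lay between -0.04 and 0.06. Kars, counted here as cytosolic, serves cytosol and mitochondria from a single gene, as Gars does. The exons of Mars1 overlap those of Ddit3, a stress factor gene, by 68 bases, and this library kit does not mark strand.

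The scaffold proteins all lay above 0, with a median of 0.20, although limma called none of the 3 (2 higher and 0 lower at an unadjusted p below 0.05). Over all genes tested, the shares at that p were 8.92% higher and 7.46% lower. Eef1e1, also known as the p18 scaffold, had 31.8, 33.8 and 33.5 FPKM in libraries labelled knockout and 28.5, 26.4 and 29.0 FPKM in control libraries (log2 change 0.23 ± 0.07; limma adjusted p = 0.156). Aimp2, the p38 scaffold at the core of the complex, had 24.9, 27.1 and 28.0 FPKM in libraries labelled knockout and 22.3, 22.7 and 24.2 FPKM in control libraries (0.20 ± 0.08; limma adjusted p = 0.243). For Eef1e1 and Aimp2 every library labelled knockout stood above every control library, as in 12.6% of all genes tested. Of the exon bases of Aimp2, 29.4% overlap its neighbour Eif2ak1. Aimp1, the p43 scaffold and precursor of a secreted cytokine, had 12.3, 10.4 and 11.4 FPKM in libraries labelled knockout and 9.25, 9.53 and 13.1 FPKM in control libraries. Its highest value was a control library (0.10 ± 0.13; limma adjusted p = 0.765), and with single libraries left out the change lay between 0.02 without control replicate 1 and 0.25 without control replicate 3. Overlaps with other genes' exons, between 0.5% and 29.4% of exon bases, touched 17 of the 40 members.

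**Figure D3:**
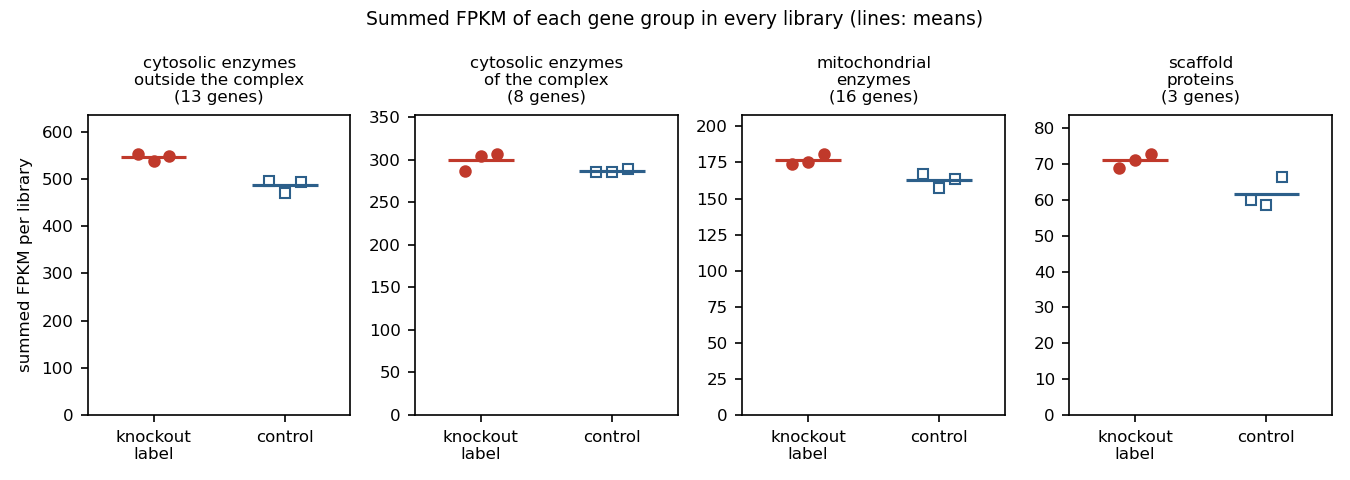
Summed FPKM of each gene group in every library, with linear axes from 0 and lines at the means. Filled circles are the 3 libraries labelled Thbs1 knockout and open squares the 3 control libraries. The cytosolic enzymes outside the complex, the mitochondrial enzymes and the scaffold proteins do not overlap between groups, whereas the enzymes of the complex do.

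Promoter sequences are shown for the genes that hold both elements linked to these enzymes. RefSeq windows (GRCm38.p6, 250 bases before to 50 after the transcript start) matched 30 of the 40 members, 14 of them cytosolic, 13 mitochondrial and 3 scaffold. The C/EBP-ATF element was searched as TGATGNAA on both strands, and the E-box, bound by Myc and related factors, as CACGTG, which reads the same on both strands. The C/EBP-ATF letters stood in 5 of the 14 cytosolic windows (Aars, Gars, Iars, Tars and Yars), in 0 of the 13 mitochondrial members and in 0 of the 3 scaffold members, beside 3.97% of all 32851 windows. The E-box stood in 4 cytosolic windows (Aars, Farsb, Iars and Tars) and 1 mitochondrial window (Ears2), beside 7.15% of all windows. Aars, Iars and Tars hold both, and in the sequences, written 5′ to 3′ on the gene's strand, capitals mark the CACGTG and TGATGNAA letters or the reverse complement of the second.
Iars promoter, chr13:49681880-49682179, plus strand: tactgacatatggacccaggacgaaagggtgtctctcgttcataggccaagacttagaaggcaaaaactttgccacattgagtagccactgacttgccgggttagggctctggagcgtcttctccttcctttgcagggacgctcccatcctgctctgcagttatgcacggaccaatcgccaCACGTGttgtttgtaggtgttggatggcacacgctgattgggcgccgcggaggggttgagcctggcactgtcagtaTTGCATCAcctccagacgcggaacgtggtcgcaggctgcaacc
Tars promoter, chr15:11399609-11399908, minus strand: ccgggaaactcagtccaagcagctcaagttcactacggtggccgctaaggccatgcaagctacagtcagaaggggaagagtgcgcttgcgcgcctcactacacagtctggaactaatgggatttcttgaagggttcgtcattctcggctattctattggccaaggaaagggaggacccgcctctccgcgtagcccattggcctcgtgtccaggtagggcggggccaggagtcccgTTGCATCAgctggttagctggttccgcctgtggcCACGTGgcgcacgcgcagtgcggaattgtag
Aars promoter, chr8:111033592-111033891, plus strand: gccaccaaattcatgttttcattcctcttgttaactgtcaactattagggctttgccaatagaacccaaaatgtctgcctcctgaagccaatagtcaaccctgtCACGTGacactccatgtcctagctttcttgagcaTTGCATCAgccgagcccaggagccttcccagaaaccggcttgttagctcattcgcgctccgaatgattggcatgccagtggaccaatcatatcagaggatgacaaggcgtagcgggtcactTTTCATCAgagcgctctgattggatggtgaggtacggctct
In Iars and Tars, and in 1 of the places in Aars, the element reads TTGCATCA, while the other place in Aars reads TTTCATCA. Of the 5 genes with the element only Iars passed the test. Their log2 changes were 0.38 for Iars, 0.20 for Gars, 0.18 for Tars, 0.18 for Yars and -0.06 for Aars. A match is a description of letters and not a site.

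No mitochondrial enzyme passed the test. Limma called 0 of 16, and at an unadjusted p below 0.05 there were 2 higher and 0 lower. That is 12.5% higher, close to the 8.92% of all genes tested. The median log2 change was 0.11, with 12 of 16 above 0, and in 6, or 37.5%, the libraries labelled knockout all stood above the control libraries, against 12.6% of all genes tested. Summed, they came to 174.0, 175.4 and 180.9 FPKM in libraries labelled knockout and to 167.3, 157.6 and 163.5 FPKM in control libraries. The sums did not overlap between groups.

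Tars2, the mitochondrial threonine enzyme, had 20.4, 21.4 and 20.1 FPKM in libraries labelled knockout and 17.7, 16.6 and 15.9 FPKM in control libraries. The groups lay apart, and the change of 0.29 ± 0.08 had the smallest unadjusted p of its compartment (limma adjusted p = 0.114). Wars2, the mitochondrial tryptophan enzyme, had 3.84, 3.83 and 4.4 FPKM in libraries labelled knockout and 3.43, 2.45 and 2.45 FPKM in control libraries (0.42 ± 0.14; limma adjusted p = 0.188). Its change was the largest of the 40 members, at one of the lowest levels. Vars2, for valine, had 8.4, 9.93 and 9.43 FPKM in libraries labelled knockout and 8.17, 7.2 and 8.24 FPKM in control libraries (0.21 ± 0.10; limma adjusted p = 0.354). Yars2, for tyrosine, had 19.1, 18.6 and 17.3 FPKM in libraries labelled knockout and 16.9, 13.6 and 17.2 FPKM in control libraries (0.20 ± 0.10; limma adjusted p = 0.364). In both, the groups lay apart but nearly met, and without control replicate 2 the change of Yars2 was 0.10. Cars2, for cysteine, had 7.44, 6.66 and 6.51 FPKM in libraries labelled knockout and 5.66, 5.69 and 6.29 FPKM in control libraries (0.19 ± 0.10; limma adjusted p = 0.396). Ears2, for glutamate, had 4.89, 6.17 and 5.38 FPKM in libraries labelled knockout and 4.29, 4.8 and 4.74 FPKM in control libraries (0.20 ± 0.12; limma adjusted p = 0.43), and without knockout-labelled replicate 2 its change was 0.13. Among the other members of the compartment, Hars2 and Nars2, for histidine and asparagine, were at 0.11, and Sars2, for serine, was at -0.05.

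For 16 amino acids the members hold a cytosolic and a mitochondrial enzyme, so the compartments could be compared per amino acid within each library. Eprs, which charges glutamate and proline with one protein, entered 2 pairs, and Farsa stood for phenylalanine. In 15 of 16 pairs the mitochondrial enzyme was below its cytosolic partner in every library. The tyrosine pair was the exception, with Yars2 at 100.6% of Yars in libraries labelled knockout and 98.9% in control libraries, in either order between libraries. The methionine pair was the widest apart, with Mars2 at 6.69% of Mars1 in libraries labelled knockout and 7.46% in control libraries. The median log2 ratio over the pairs was -1.69 in libraries labelled knockout and -1.48 in control libraries. These medians fall on different pairs, so the gap between them is not the change of any pair. Within pairs, the log2 ratio in libraries labelled knockout minus that in control libraries ran from -0.43 for isoleucine to 0.37 for tryptophan. FPKM here divides by merged exon length, which for Eprs is 18102 bases. Per kilobase of the longest coding transcript instead, the median log2 ratio was -1.98 in libraries labelled knockout and -2.03 in control libraries, and the cysteine pair turned round, to a log2 ratio of 0.34 in favour of Cars2.

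The ratios of 3 pairs lay lower in every library labelled knockout than in the control libraries, those of 3 pairs lay higher, and 10 pairs overlapped. Pair ratios were not tested between groups, and for single genes the shares apart were 10.1% lower and 12.6% higher over all genes tested. For isoleucine the log2 ratio of Iars2 to Iars was -1.93 ± 0.10 in libraries labelled knockout and -1.49 ± 0.05 in control libraries (SD, n = 3 each), with Iars2 at 26.4% of Iars in libraries labelled knockout and 35.6% in control libraries. Iars2 itself had a log2 change of -0.04 ± 0.09, and 24.2% of its exon bases overlap Rab3gap2 and another gene on the opposite strand. Serine had a ratio of -1.64 ± 0.05 in libraries labelled knockout and -1.38 ± 0.15 in control libraries, and arginine -0.50 ± 0.04 in libraries labelled knockout and -0.36 ± 0.07 in control libraries. These were the 3 lower pairs, and tryptophan and glutamate were among the higher ones. Tryptophan had -3.19 ± 0.13 in libraries labelled knockout and -3.55 ± 0.12 in control libraries, and glutamate -1.22 ± 0.14 in libraries labelled knockout and -1.47 ± 0.11 in control libraries.

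**Figure D4:**
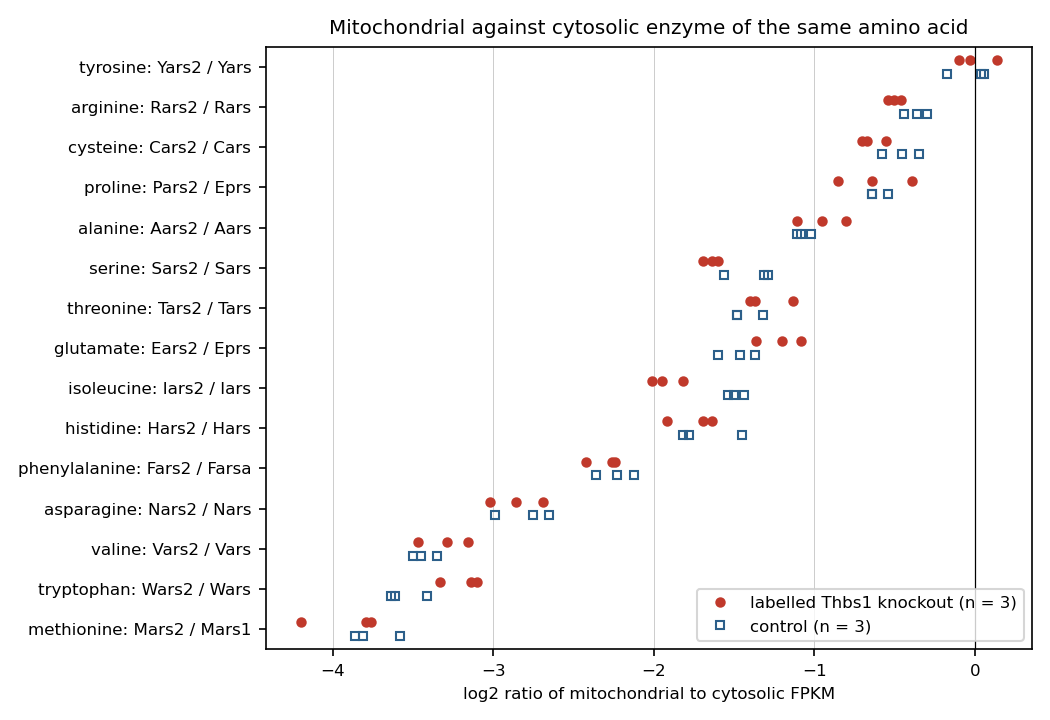
Log2 ratio of mitochondrial to cytosolic FPKM for amino acids with an enzyme in each compartment, in every library. Filled circles are the 3 libraries labelled Thbs1 knockout, open squares the 3 control libraries, and the line at 0 marks equal FPKM. All pairs shown but tyrosine lie left of 0 in every library.

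Genes of the amino acid response, the programme that Gcn2 and Atf4 run, were read as a list of 24 genes, of which 20 were tested. Limma called 1 higher and 0 lower, where it called 0.566% of all genes higher and 0.996% lower. The median log2 change was 0.13 with 18 above 0, beside 0.01 with 53.4% above 0 over all genes tested and 0.04 with 59.7% above 0 at a mean of at least 5 FPKM. Asns, asparagine synthetase, a standard target of Atf4, stood at 35.5, 38.2 and 36.3 FPKM in libraries labelled knockout, against 27.0, 26.2 and 28.7 FPKM in control libraries. The groups lay apart, and Asns rose 1.34-fold, by 0.41 ± 0.07 (limma adjusted p = 0.0284). Leaving out single libraries kept this call only without control replicate 3 (limma adjusted p = 0.0403), and the adjusted p otherwise lay between 0.0534 and 0.116. With all libraries kept, the call of Asns was lost without the intensity trend (limma adjusted p = 0.0867), with no filter on low values (limma adjusted p = 0.124) and with the replicate number as a block (limma adjusted p = 0.0907). Eif2ak4, which encodes Gcn2, had 8.84, 9.77 and 9.15 FPKM in libraries labelled knockout and 8.25, 6.34 and 5.69 FPKM in control libraries (0.41 ± 0.13; limma adjusted p = 0.152). Trib3, a pseudokinase gene induced by Atf4, had 26.9, 16.5 and 17.7 FPKM in libraries labelled knockout and 15.2, 14.3 and 13.5 FPKM in control libraries (0.45 ± 0.16; limma adjusted p = 0.196). Replicate 1 of the libraries labelled knockout stood far above the rest, and without it the change of Trib3 was 0.24. Mthfd2, a mitochondrial folate enzyme, had 9.14, 9.89 and 7.77 FPKM in libraries labelled knockout and 6.43, 7.18 and 7.27 FPKM in control libraries (0.32 ± 0.11; limma adjusted p = 0.199). Atf4 itself, regulated largely by its translation, was at 0.06 (limma adjusted p = 0.776).

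Elongation and other translation factors, a list of 14, had a median log2 change of 0.13 with 12 above 0, and limma called 0 (4 higher and 0 lower at an unadjusted p below 0.05, which is 28.6% higher against 8.92% of all genes tested). The smallest unadjusted p-values belonged to mitochondrial factors. Tufm, the mitochondrial elongation factor that delivers charged transfer RNA, had 53.0, 54.3 and 50.4 FPKM in libraries labelled knockout and 44.5, 44.3 and 43.6 FPKM in control libraries (0.25 ± 0.06; limma adjusted p = 0.105). The groups lay clearly apart. Its exchange factor Tsfm had 19.2, 21.3 and 21.2 FPKM in libraries labelled knockout and 18.0, 18.4 and 17.9 FPKM in control libraries (0.17 ± 0.08; limma adjusted p = 0.304). Gfm2, which helps recycle mitochondrial ribosomes, had 5.02, 4.9 and 5.77 FPKM in libraries labelled knockout and 3.86, 3.76 and 4.12 FPKM in control libraries (0.34 ± 0.11; limma adjusted p = 0.182). Mrrf, the mitochondrial ribosome recycling factor, overlapped between groups, with 11.4, 10.7 and 9.58 FPKM in libraries labelled knockout and 8.38, 7.67 and 9.81 FPKM in control libraries (0.27 ± 0.11; limma adjusted p = 0.278).

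Genes that finish, edit or carry charged transfer RNA, a list of 13 with 12 tested, divided evenly. Of these 6 lay above 0 and 6 below with a median of 0.00, and limma called 0 (2 higher and 0 lower at an unadjusted p below 0.05, which is 16.7% higher against 8.92% of all genes tested). Gatb, a subunit of the amidotransferase that makes glutaminyl-tRNA in mitochondria, which lack a glutaminyl-tRNA synthetase of their own, had 9.33, 9.48 and 9.2 FPKM in libraries labelled knockout and 5.72, 7.57 and 6.9 FPKM in control libraries (0.43 ± 0.11; limma adjusted p = 0.104). Gatc, from the same enzyme, had 39.1, 43.2 and 37.5 FPKM in libraries labelled knockout and 36.2, 36.1 and 31.7 FPKM in control libraries (0.20 ± 0.08; limma adjusted p = 0.281). The groups lay apart for both, but the catalytic subunit gene Qrsl1 was at -0.11 (limma adjusted p = 0.684). Mtfmt, which formylates the mitochondrial initiator methionyl-tRNA, had 12.3, 12.1 and 12.4 FPKM in libraries labelled knockout and 10.7, 12.2 and 9.06 FPKM in control libraries (0.19 ± 0.11; limma adjusted p = 0.425), and its change was 0.09 without control replicate 3 and 0.29 without control replicate 2. Prorsd1, a gene related to prolyl-tRNA editing domains, had 15.8, 16.7 and 16.2 FPKM in libraries labelled knockout and 17.9, 19.1 and 16.7 FPKM in control libraries (-0.13 ± 0.08; limma adjusted p = 0.462). In 2 of the 12 genes every library labelled knockout stood above every control library, and in 2, Prorsd1 and Aarsd1, every one stood below. That is 16.7% each way, where 12.6% of all genes tested lay above and 10.1% below. Aarsd1 had 0.88, 0.63 and 0.99 FPKM in libraries labelled knockout and 1.09, 1.06 and 1.37 FPKM in control libraries. It passed the filter through the control libraries alone, so the filter itself set it below. Aarsd1 therefore carries no weight in that count or among the 6 below 0.

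**Figure D5:**
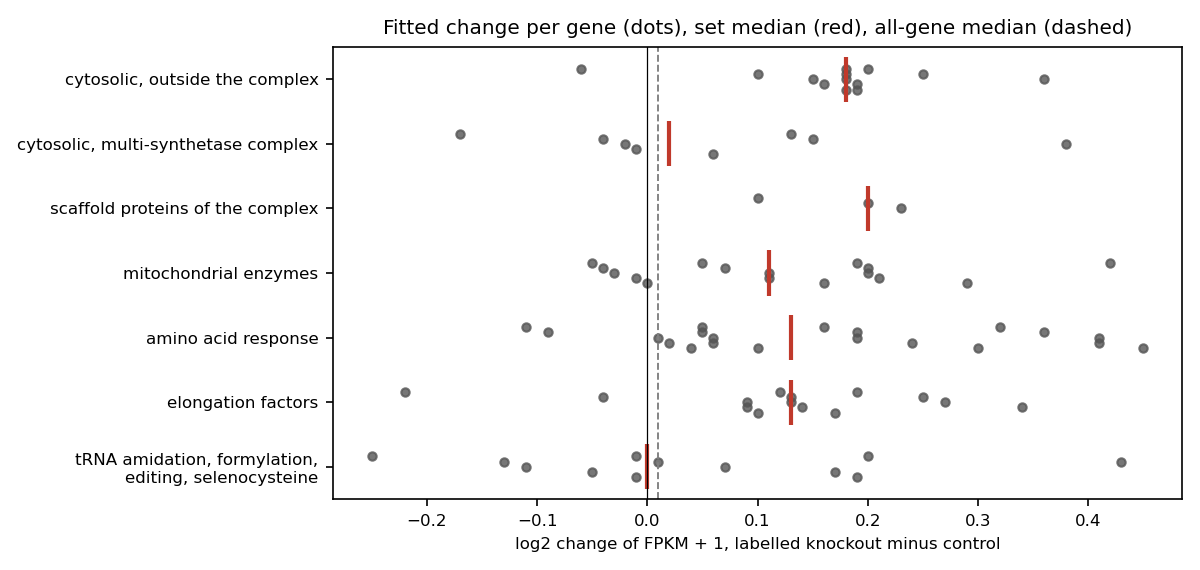
Log2 change of each gene (libraries labelled Thbs1 knockout minus control) in the synthetase groups and the related lists, with the median of each set as a red line and that of all genes tested as a dashed line at 0.01. The medians run from 0.00 for tRNA amidation, formylation, editing and selenocysteine to 0.20 for the scaffold proteins.

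The directions rest on the scale of the libraries. After rescaling to TPM, which gives every library the same sum, the median of all genes tested moved to 0.21 and all 40 members lay above 0, so that Lars, Aars and the 7 other members below 0 changed sign. Scaling by the median of ratios turned Rars2, at 0.00, to -0.02, and quantile normalization turned it to -0.04 and Mars2 to 0.04. Relative to the TPM median of all genes tested, the TPM medians were 0.16 for cytosolic enzymes, 0.11 for mitochondrial enzymes and 0.19 for scaffold proteins. They were 0.17 for cytosolic enzymes outside the complex and 0.01 for those within it. In TPM, 30 of the 40 members lay above the median of all genes. TPM called 22 of the 40 members higher, beside 2370 higher and 115 lower among all 12555 genes tested.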

How the data were processed

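RNA of sorted stem cells entered the SMART-Seq v4 kit at 2 ng per library, per the labels' protocols. FastQC 0.11.5, STAR, edgeR and the builds GRCm38 and mm10 appear in the submitters' processing notes without a stated role. The authors deposited FPKM values for 52183 genes, and all matched GENCODE M21 (GRCm38), the source of positions and exon lengths. Depth came from the steps of the FPKM values in genes of at most 400 bases, of which 99.4% to 99.8% were whole within 0.1 read. Libraries of a group correlated at 0.983 to 0.987.

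FPKM are not counts, so log2(FPKM + 1) of the deposited values was tested with limma 3.58.1 in R 4.3.3 (eBayes with trend, two-sided, group as the single term). The filter was 1 FPKM in 3 of the 6 libraries, which left 12555 genes, and Benjamini-Hochberg adjustment ran over all of them with a threshold of 0.05. This log2 scale understates the change of low genes. Near copies were searched with BLAST 2.17.0.

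The members and lists were chosen with earlier results of these data known. Values per library are given for called members, the 6 enzymes of each compartment with the smallest unadjusted p, the scaffold proteins, the highest and lowest enzyme of each compartment, and up to 4 genes of each list. Values of Lars, and the promoters printed, were picked with the results in view. Single values of 1 member are not reported here, though counts, medians and sums include it. Protein sequences were not used here. Alternatives were another pseudocount, other filters and scalings, array weights, no trend, a replicate block and each library left out.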

Additional observations from a re-analysis of the deposited data

How the results depend on the processing

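Of all genes tested, 71 were called higher and 125 lower. The count higher was 112 with array weights, 112 with a mean of at least 5 FPKM, 24 without the intensity trend, 8 with no filter on low values, 2370 after rescaling to TPM, and 16 to 38 with 1 library left out. The count lower was 65 without the trend, 16 with no filter, and 43 to 77 with 1 library left out. Of the cytosolic enzymes, Iars was the 1 called. The count was 0 without the trend, with no filter, after quantile normalization or with any 1 library left out (0 to 0). TPM called 14 of the 21. TPM also called 6 of 16 mitochondrial enzymes, 2 of 3 scaffold proteins and 2 of 12 genes of the amidation and editing list. It called 9 of 14 elongation factors and 13 of 20 genes of the amino acid response. These counts stand beside 2370 called higher of all 12555 genes tested. Quantile normalization called 1 elongation factor. The amino acid response had 1 call, which became 0 without the trend and with no filter, and 0 to 1 with 1 library left out. The cytosolic median of 0.16 was 0.11 after quantile normalization and 0.36 in TPM, and lay between 0.13 and 0.17 with 1 library left out. The mitochondrial median of 0.11 was 0.31 in TPM and lay between 0.09 and 0.15 with 1 library left out. The TPM values kept the genes that passed the FPKM filter. The cause of these changes was not tested.

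Some genes that were not called changed sign. In TPM, log2 changes became 0.17 for Mars2, 0.06 for Prorsd1, 0.13 for Aars, 0.18 for Dars, 0.18 for Eprs, 0.15 for Iars2, 0.16 for Kars, 0.03 for Lars, 0.16 for Pars2 and 0.14 for Sars2. Array weights gave 0.03 for Mars2, 0.01 for Dars and 0.03 for Eprs. Quantile normalization gave 0.04 for Mars2 and -0.04 for Rars2, and the median of ratios -0.02 for Rars2. With 1 library left out, the range crossed or reached 0 for Mars2 (-0.08 to 0.10), Rars2 (-0.05 to 0.05), Aars2 (0.00 to 0.11), Dars (-0.06 to 0.05), Eprs (-0.09 to 0.12), Iars2 (-0.11 to 0.02), Kars (-0.08 to 0.02), Qars (-0.03 to 0.16), Pars2 (-0.08 to 0.00) and Sars2 (-0.12 to 0.01). Thbs1 lay between 0.19 and 1.26. The pair ratio per coding transcript, an alternative chosen after seeing the data, was -1.98 in libraries labelled knockout and -2.03 in control libraries, because the divisor is another length.

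Both groups carry the same replicate numbers. Deviations of same-numbered libraries correlated at -0.11, 0.037 and -0.079, and those of differently numbered ones at between -0.10 and 0.19. With 3 libraries a group, these values cannot settle whether the numbers pair the libraries. With the replicate block, 27 genes were called higher and 54 lower, with 0 cytosolic enzymes and 0 genes of the amino acid response among those higher. P-values rest on 3 libraries a group, and each member's value on at least 331 reads.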
